A study of Homo sapiens with 8 samples.

Results

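The 10 genes described here act in fatty acid synthesis, fatty acid modification and lipid storage: ACLY, ACACA and FASN, SCD and ELOVL6, FADS1 and FADS2, DGAT2, PLIN2 and CIDEC. They were taken from the table by name, from a list drawn up with earlier results of these data known, and were 10 of the 18902 features analysed. Each was found in the table under its own symbol, and each was among the 13553 genes with a mean of at least 0.5 FPKM that were tested. The lowest value of any of them in any library was 1.65 FPKM, for DGAT2. FPKM, fragments scaled to transcript length and to the fragments mapped in the library, is a level per transcript length, so levels of different genes can be set side by side.

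The RNA came from MHCC-97H and MHCC-97L, human hepatocellular carcinoma lines whose names refer to high (H) and low (L) metastatic potential. Both were studied as they are and after stable introduction of Flag-OGT, full-length wild-type O-GlcNAc transferase with a Flag tag, the enzyme that places N-acetylglucosamine on serine and threonine residues of intracellular proteins. There were 4 groups of 2 libraries: MHCC-97H, MHCC-97H with Flag-OGT, MHCC-97L and MHCC-97L with Flag-OGT. The wider study concerned OGT and the zinc-finger protein ZNF263 on chromatin, and its chromatin data were not analysed here. All 4 groups were grown in the same medium with fetal calf serum. Flag-OGT came from a lentiviral vector that also carries luciferase, and those cells were selected with neomycin. Libraries lacking it have no genotype given and serve as controls; the sources used here do not give whether those cells received an empty vector or the drug, nor whether the Flag-OGT cells were a pool or a single clone.

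Lipogenesis turns citrate into fat. ACLY splits cytosolic citrate into acetyl-CoA, ACACA carboxylates acetyl-CoA to malonyl-CoA, and FASN builds palmitate from both. ELOVL6 lengthens palmitate to stearate, and SCD places the first cis bond that makes oleate. FADS1 and FADS2, neighbours on the chromosome, desaturate essential fatty acids from the diet on the way to arachidonic and docosahexaenoic acid. DGAT2 joins the last acyl chain to diacylglycerol, PLIN2 coats lipid droplets, and CIDEC sits at contacts between droplets and promotes their growth. In liver several of these genes are known targets of SREBP and ChREBP transcription factors and, for the droplet proteins, of PPAR receptors.

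The libraries were separated first by Flag-OGT and only then by line. On log2(FPKM + 1) values, replicates had r of 0.997 to 0.999, the same state in the other line gave r of 0.957 to 0.963, and the other state in the same line gave r of 0.725 to 0.753. These are correlations across genes, which are not independent replicates. A Flag-OGT library was thus closer to the Flag-OGT libraries of the other line than to the controls of its own. Only the labels tie these libraries to their line and state, their identity was not tested, and each difference with Flag-OGT below is one between libraries so labelled. OGT itself was at 32.5 and 34.2 FPKM in the MHCC-97H controls against 59.0 and 58.4 FPKM with Flag-OGT (log2 difference 0.80 ± 0.06, SE; limma, Benjamini-Hochberg adjusted p = 3.0e-07). The MHCC-97L values were 45.7 and 43.9 FPKM in the controls against 51.0 and 54.5 FPKM with Flag-OGT (0.23 ± 0.06, adjusted p = 3.4e-03), a call lost after scaling to equal sums (0.11, adjusted p = 0.0985) or by median-of-ratios scaling (0.02, adjusted p = 0.685). The 16 hepatocyte markers summed to 85.2 FPKM in both MHCC-97H controls and to 186 and 190.3 FPKM in the MHCC-97L controls, but to 3.29 to 6.94 FPKM in the Flag-OGT libraries, where TTR was listed at 0. In the same order of controls, then Flag-OGT libraries, the macrophage list (8 genes, led by CD68; AIF1 listed at 0 throughout) summed to 67.2 to 81.2 and 2.84 to 8.74 FPKM, and the endothelial list (5 genes) to 33.5 to 46.4 and 0.66 to 1.57 FPKM. The fibroblast list (9 genes) summed to 4.65 to 12.2 and 14.7 to 21.1 FPKM. The adipocyte list (7 of 8 genes in the table, mostly CFD, with CIDEA listed at 0 throughout) summed to 1.70 to 7.42 and 12.9 to 19.4 FPKM. These sums hide opposite moves of single genes. Of the 3 fibroblast genes tested, 2 were called higher and 1 lower in each line. Of all tested genes 48.2% were called higher and 36.3% lower in MHCC-97H, and 50.1% and 34.7% in MHCC-97L. With Flag-OGT, mean ACTA2 was 15.6 (MHCC-97H) and 8.81 FPKM (MHCC-97L), against 0 and 0.08 FPKM in controls. Mean LUM was 0.035 and 0.04 FPKM, against 10 and 4.48 FPKM. Of the macrophage genes in MHCC-97L, mean CD68 was 2.24 FPKM against 63.6 FPKM in controls, but LYZ was 4.7 against 2.8 FPKM. The part of these shifts in any result below was not tested. The number of reads behind the values is unknown. Nothing in the labels says that the 2 RNA libraries of a group came from separate cultures, so p-values measure the spread between libraries, which may be technical. Values below are given library by library (n = 2 a group), and ± marks the SE of a difference.

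With Flag-OGT, ACLY and SCD rose in both lines, and FASN rose in MHCC-97H. FADS1, FADS2, PLIN2, CIDEC and DGAT2 fell in both lines, by at least 2-fold in each apart from DGAT2 in MHCC-97H, ELOVL6 fell in MHCC-97H and ACACA fell in MHCC-97L. In MHCC-97H 3 of the 10 genes were called higher and 6 lower, where 48.2% of all tested genes were called higher and 36.3% lower (84.6% in either direction). In MHCC-97L 2 of 10 were called higher and 6 lower, against 50.1% and 34.7% of all tested genes (84.8% in either direction); with median-of-ratios scaling 1 was higher and 7 lower, and with a common sum 1 and 6. Since most genes were called, these counts say little by themselves. With a change of at least 2-fold also asked for, 0 of the 10 were higher and 4 lower in MHCC-97H, against 22.3% and 16.0% of all tested genes. In MHCC-97L the counts were 0 higher and 5 lower, against 18.6% and 16.1%. The median log2 difference over the 10 genes was -0.47 in MHCC-97H and -0.84 in MHCC-97L, where the medians of all tested genes were 0.15 and 0.19. Median-of-ratios scaling moved those medians of all genes to -0.01 and 0.02, so gains of that size depend on the scaling. The cells' RNA content was not measured, so a change in total RNA per cell would not be seen. Single cells were not measured either, so less RNA of a gene per cell and fewer cells expressing it cannot be told apart.

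**Figure D1:**
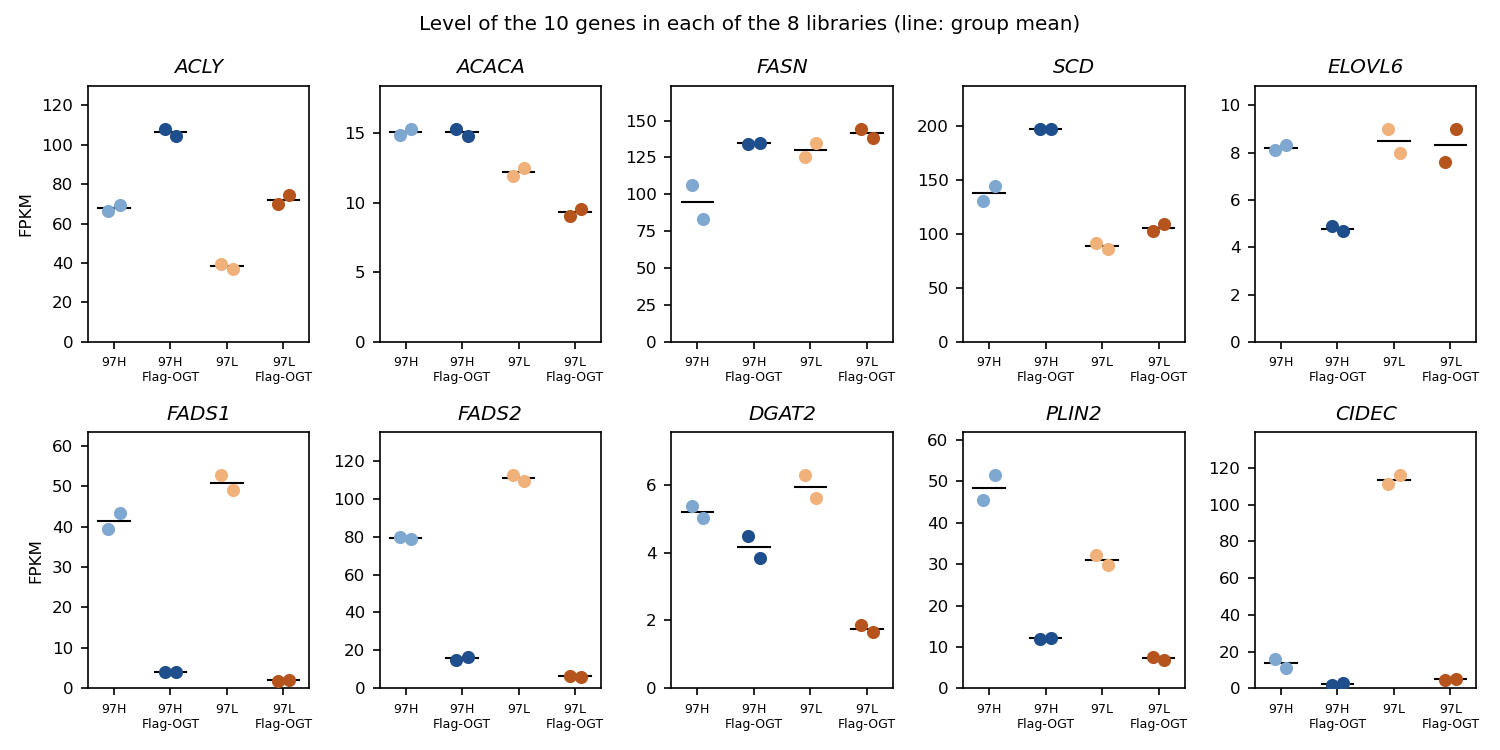
FPKM of the 10 genes (vertical axis, linear, from 0) in each library of the 4 groups (horizontal axis); points are libraries and lines are group means. FADS1, FADS2, PLIN2 and CIDEC lie lower in both Flag-OGT groups than in either control group, and ACLY and SCD lie higher with Flag-OGT than in the controls of the same line.

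ACLY, which supplies acetyl-CoA, rose in both lines. It was at 66.5 and 69.4 FPKM in the MHCC-97H controls against 108 and 104 FPKM with Flag-OGT, a log2 difference of 0.64 ± 0.06 (adjusted p = 2.1e-06). The MHCC-97L values were 39.7 and 37.1 FPKM in the controls against 69.9 and 74.3 FPKM with Flag-OGT, a log2 difference of 0.89 ± 0.06 (adjusted p = 1.6e-07). Both Flag-OGT libraries lay above both controls in each line, and the Flag-OGT libraries of MHCC-97L lay just above the MHCC-97H controls.

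ACACA, the rate-limiting step of palmitate synthesis, did not follow ACLY. In MHCC-97H it was at 14.9 and 15.3 FPKM in the controls against 15.3 and 14.8 FPKM with Flag-OGT, so the groups overlapped (95% interval of the log2 difference -0.14 to 0.14, adjusted p = 0.999). Of the alternatives, median-of-ratios scaling alone called it lower there (-0.19, adjusted p = 0.0112). In MHCC-97L it fell from 11.9 and 12.5 FPKM to 9.06 and 9.55 FPKM, a log2 difference of -0.35 ± 0.06 (adjusted p = 3.1e-04), which was -0.54 with median-of-ratios scaling.

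FASN, the synthase itself, had the highest level of the 10 in both MHCC-97L groups. In MHCC-97H its libraries were at 106 and 83.5 FPKM without Flag-OGT and at 134 and 135 FPKM with it, a log2 difference of 0.51 ± 0.09 (adjusted p = 5.4e-04). That gain was 0.34 without the lower control (adjusted p = 5.7e-04) and 0.31 with median-of-ratios scaling (adjusted p = 0.0193). In MHCC-97L FASN was at 126 and 135 FPKM in the controls against 145 and 138 FPKM with Flag-OGT; the libraries did not overlap but the difference of 0.12 was not called (95% interval -0.09 to 0.33, adjusted p = 0.262). It was called when either MHCC-97H control was left out (adjusted p = 0.0436 and 0.0433), with the difference itself unmoved, and it was -0.09 with median-of-ratios scaling.

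SCD, the stearoyl-CoA desaturase that makes oleate, had the highest level of the 10 in both MHCC-97H groups. Its libraries were at 131 and 145 FPKM in the MHCC-97H controls against 198 and 197 FPKM with Flag-OGT, a log2 difference of 0.52 ± 0.06 (adjusted p = 1.7e-05; 0.32 with median-of-ratios scaling). In MHCC-97L they were at 91.8 and 86.6 FPKM without and at 103 and 109 FPKM with Flag-OGT, a log2 difference of 0.25 ± 0.06 (adjusted p = 3.3e-03). The groups did not overlap in either line, but the call in MHCC-97L was lost with FPKM rescaled to a common sum (0.13, adjusted p = 0.0772) and with median-of-ratios scaling (0.04, adjusted p = 0.522).

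ELOVL6, the elongase that acts between FASN and SCD on saturated chains, went the other way in MHCC-97H. It fell there from 8.12 and 8.31 FPKM to 4.90 and 4.67 FPKM, a log2 difference of -0.67 ± 0.09 (adjusted p = 3.8e-05). In MHCC-97L the groups overlapped, at 9.01 and 7.98 FPKM in the controls against 7.60 and 9.02 FPKM with Flag-OGT (95% interval of the log2 difference -0.23 to 0.17, adjusted p = 0.751). With median-of-ratios scaling it was called lower in MHCC-97L too (-0.22, adjusted p = 0.028).

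**Figure D2:**
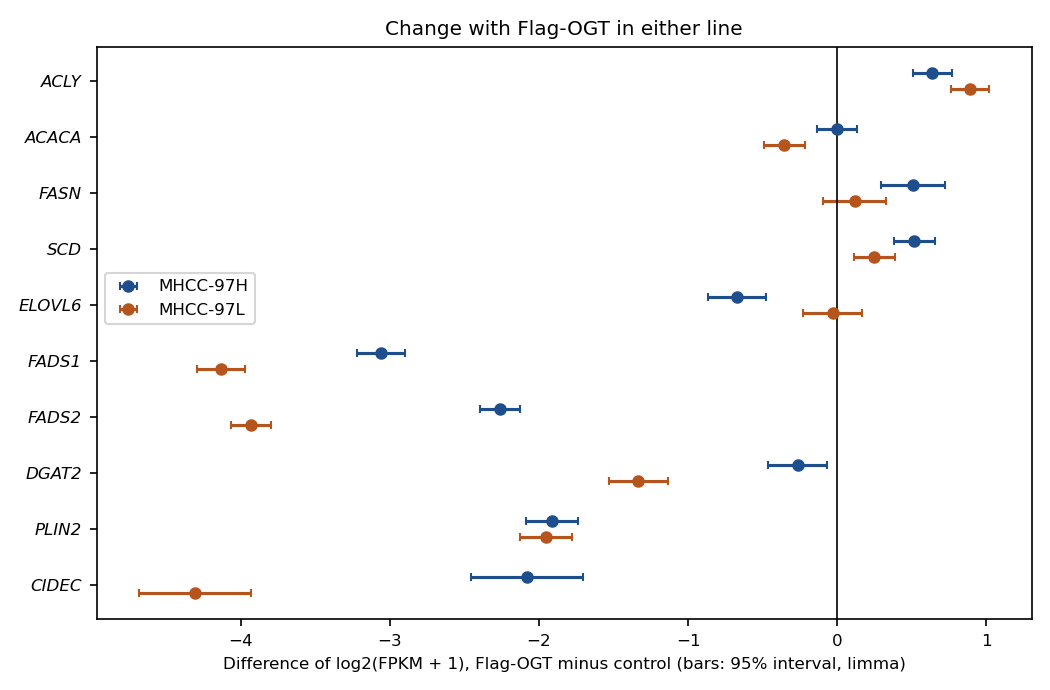
Log2 difference of FPKM + 1, Flag-OGT minus control, for each of the 10 genes (horizontal axis, log2 scale) in MHCC-97H (blue) and MHCC-97L (orange), with 95% intervals from limma. The intervals of ACLY and SCD lie above 0 in both lines, and FADS1 has the lowest value in MHCC-97H (-3.06) and CIDEC the lowest in MHCC-97L (-4.31).

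FADS1 and FADS2, the front-end desaturases, lost most of their signal in both lines. FADS1 was at 39.4 and 43.3 FPKM in the MHCC-97H controls against 3.99 and 4.13 FPKM with Flag-OGT. The log2 difference was -3.06 ± 0.07 (adjusted p = 6.6e-11), 8.36-fold lower on the scale of FPKM + 1. In MHCC-97L it went from 52.7 and 49.0 FPKM to 1.85 and 2.05 FPKM, a log2 difference of -4.14 ± 0.07 (adjusted p = 1.1e-11), or 17.6-fold lower. FADS2 was at 80.0 and 78.7 FPKM in the MHCC-97H controls against 15.0 and 16.5 FPKM with Flag-OGT, a log2 difference of -2.26 ± 0.06 (adjusted p = 1.6e-10). In MHCC-97L it went from 112 and 109.6 FPKM to 6.52 and 6.17 FPKM, a log2 difference of -3.93 ± 0.06 (adjusted p = 4.6e-12), or 15.3-fold lower. Both genes were thus lower in every Flag-OGT library than in every control of either line, and the Flag-OGT libraries of MHCC-97L were the lowest.

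The genes beside FADS1 and FADS2 were looked up after those values were seen. In chromosomal order the protein-coding genes there are MYRF, TMEM258, FEN1, FADS1, FADS2, FADS3, RAB3IL1 and BEST1. MYRF, which encodes a membrane-bound transcription factor, was at 48.1 and 45.9 FPKM in the MHCC-97H controls against 6.13 and 6.43 FPKM with Flag-OGT (log2 difference -2.72, adjusted p = 5.0e-11). In MHCC-97L it went from 68.3 and 68.0 FPKM to 2.75 and 2.51 FPKM (-4.25, adjusted p = 3.6e-12). Of all tested genes 16.0% in MHCC-97H and 16.1% in MHCC-97L were called at least 2-fold lower. FADS3 fell less, by log2 differences of -0.75 and -1.37 (adjusted p = 1.6e-06 and 1.5e-08). RAB3IL1 differed by -0.61 and -0.32 (adjusted p = 2.4e-05 and 2.2e-03). BEST1 differed by 0.41 in MHCC-97H and by -0.39 in MHCC-97L (adjusted p = 4.8e-04 and 7.1e-04). Its MHCC-97H call was lost with quantile normalization (0.09, adjusted p = 0.268). TMEM258 and FEN1 lie between MYRF and FADS1, and TMEM258 rose in both lines (0.64 and 0.73, adjusted p = 2.0e-06 and 6.9e-07). FEN1, a flap endonuclease of DNA replication, differed by 0.11 in MHCC-97H (adjusted p = 0.12) and by 0.25 in MHCC-97L (adjusted p = 3.2e-03), a call lost with a common sum (0.13, adjusted p = 0.0743) and with median-of-ratios scaling (0.04, adjusted p = 0.503). FADS1 and FADS2 have overlapping exons on opposite strands in the GENCODE annotation, and FADS2 overlaps FEN1 on the same strand. The sources used here do not say whether the counting used strand, so reads of the overlaps cannot be assigned to either gene.

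**Figure D3:**
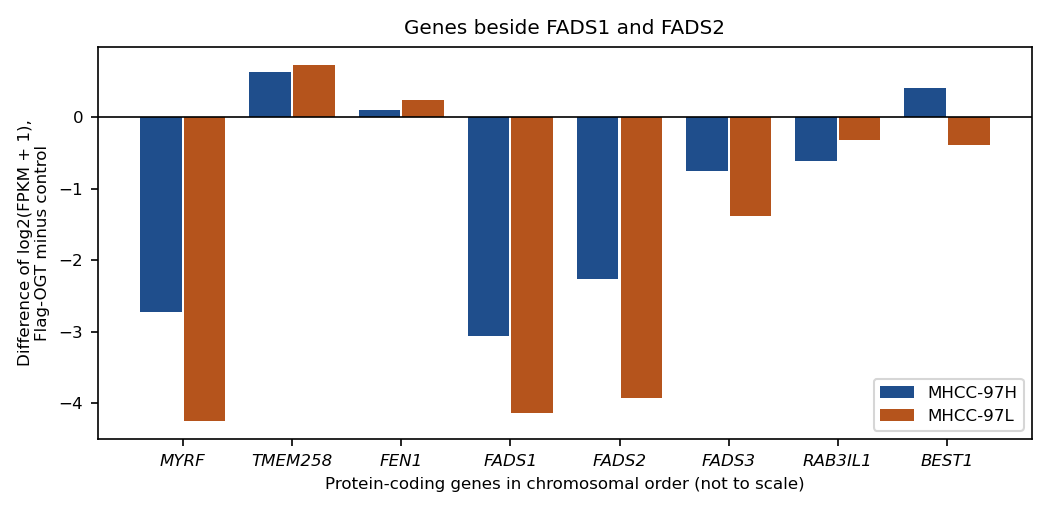
Log2 difference of FPKM + 1, Flag-OGT minus control (vertical axis), for FADS1, FADS2 and the protein-coding genes around them in chromosomal order (horizontal axis, not to scale), in MHCC-97H (blue) and MHCC-97L (orange); bars start at 0 and have no error bars. MYRF falls with FADS1 and FADS2, while TMEM258, between MYRF and FADS1, lies above 0 in both lines.

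DGAT2, which completes triacylglycerol, was the least abundant of the 10 genes in both control groups. In MHCC-97H it was at 5.38 and 5.02 FPKM in the controls against 4.49 and 3.84 FPKM with Flag-OGT, a log2 difference of -0.27 ± 0.09 (adjusted p = 0.0169). That call was lost without the first control (-0.22, adjusted p = 0.0842) or without the second Flag-OGT library (-0.17, adjusted p = 0.156), and the difference was -0.44 with median-of-ratios scaling. In MHCC-97L the gene fell from 6.28 and 5.61 FPKM to 1.86 and 1.65 FPKM, a log2 difference of -1.33 ± 0.09 (adjusted p = 1.9e-07). Exons of DGAT2 and of ACLY overlap annotated antisense transcripts, with the same limit on strand.

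PLIN2, the droplet coat protein of most cell types, fell in both lines. It was at 45.5 and 51.5 FPKM in the MHCC-97H controls against 12.0 and 12.2 FPKM with Flag-OGT, a log2 difference of -1.91 ± 0.08 (adjusted p = 4.0e-09). In MHCC-97L it went from 32.1 and 29.8 FPKM to 7.66 and 6.83 FPKM, a log2 difference of -1.96 ± 0.08 (adjusted p = 4.0e-09). The groups did not overlap in either line, and these are 3.76-fold and 3.88-fold lower levels on the scale of FPKM + 1.

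CIDEC, which is best known from adipocytes and fatty liver, had the widest range of the 10 genes in fold terms. It was at 111 and 116 FPKM in the MHCC-97L controls but at 16.1 and 11.3 FPKM in the MHCC-97H controls. With Flag-OGT it was at 4.40 and 5.21 FPKM in MHCC-97L and at 1.93 and 2.99 FPKM in MHCC-97H. The log2 difference was -4.31 ± 0.17 in MHCC-97L (adjusted p = 3.3e-09, 19.8-fold lower) and -2.08 ± 0.17 in MHCC-97H (adjusted p = 8.7e-07, 4.24-fold lower). The CIDEC libraries of the 4 groups did not overlap. GENCODE annotates pseudogene copies of CIDEC (CIDECP), SCD (SCDP1) and FADS2 (FADS2P1). The sources used here do not say how reads matching several copies were counted. Of the adipocyte markers, CIDEA was at 0 in all 8 libraries and FABP4 at 0 or 0.07 FPKM, while the 3 that were tested, CFD, LIPE and PLIN1, were all called lower in the MHCC-97H controls than in the MHCC-97L controls, as CIDEC was. LIPE, the hormone-sensitive lipase, was at 0.04 and 0 FPKM in the former and at 1.60 and 2.05 FPKM in the latter. With Flag-OGT CIDEC fell in both lines, CFD and PLIN1 rose in both, and LIPE rose in MHCC-97H (0.43) and fell in MHCC-97L (-0.92). The part of these markers in the CIDEC values was not tested.

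ACLY and SCD were called higher in both lines, and PLIN2 and CIDEC lower in both. The SCD call in MHCC-97L was lost with median-of-ratios scaling (0.04) and with a common sum (0.13). The sequences just upstream of these genes are shown. They come from the RefSeq promoter table (GRCh38.p14), which holds 13 start sites for 8 of the 10 genes; FASN and DGAT2 have no entry there. Each run is the part of the 250 bases before the annotated start that lies ahead of any annotated exon, written 5′ to 3′ on the gene's own strand. Capitals mark the CCAAT box, searched as CCAAT on either strand (ATTGG on the other). ACLY is at chr17:41919023-41919272 on the minus strand and SCD at chr10:100346983-100347123 on the plus strand. PLIN2 is at chr9:19127577-19127742 and CIDEC, upstream of the farther of its starts, at chr3:9880255-9880503, both on the minus strand.
ACLY: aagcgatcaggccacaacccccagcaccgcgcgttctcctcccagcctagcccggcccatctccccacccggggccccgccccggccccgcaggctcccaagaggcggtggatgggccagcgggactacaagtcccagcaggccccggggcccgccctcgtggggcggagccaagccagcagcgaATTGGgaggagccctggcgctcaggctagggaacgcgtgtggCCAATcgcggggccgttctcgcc
SCD: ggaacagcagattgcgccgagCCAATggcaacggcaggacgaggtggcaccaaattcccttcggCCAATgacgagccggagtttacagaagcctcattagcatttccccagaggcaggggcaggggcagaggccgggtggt
PLIN2: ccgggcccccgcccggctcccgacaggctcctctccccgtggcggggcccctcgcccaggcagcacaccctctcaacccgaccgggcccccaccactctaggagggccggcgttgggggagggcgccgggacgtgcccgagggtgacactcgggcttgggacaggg
CIDEC: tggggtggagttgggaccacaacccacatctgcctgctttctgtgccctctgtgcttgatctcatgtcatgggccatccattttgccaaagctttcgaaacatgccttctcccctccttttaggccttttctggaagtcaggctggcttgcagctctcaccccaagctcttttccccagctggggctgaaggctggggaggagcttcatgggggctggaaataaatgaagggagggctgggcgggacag

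The ACLY and SCD runs each held 2 CCAAT boxes and those of PLIN2 and CIDEC held none. Over the whole windows of 250 bases, CCAAT was found at 5 of the 13 starts, belonging to ACLY, SCD and ACACA, and at none of those of FADS1, FADS2, ELOVL6, PLIN2 and CIDEC. Of all 35116 windows of that length in the table, 32.0% held it. ACACA, which held it too, was not called in MHCC-97H and fell in MHCC-97L. The E-box CACGTG was found at 1 of the 13 starts, that of PLIN2, inside the exon-overlapping part not printed, and in 6.34% of all windows. The sterol regulatory element TCACNCCAC was found at 1 start, the nearer CIDEC start, and in 0.883% of all windows. GGGAGGA, a core of the published ZNF263 motif, was found at 8 of the 13 starts and in 16.0% of all windows, and the GC box GGGCGG at 10 of 13 and in 42.6%. All were searched on both strands. Starts of 1 gene share sequence, and ACLY, which rose, and CIDEC, which fell, both held the ZNF263 letters; in ACLY 1 match overlaps a CCAAT box. A match describes the letters of the window and is not evidence of binding.

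The changes differed between the lines for most of the 10 genes. By the test of the difference itself, the log2 change in MHCC-97H minus that in MHCC-97L, 7 genes were called higher and 2 lower, where 33.9% and 29.4% of all tested genes were (63.3% in either direction). Asked for at least 2-fold, the counts were 4 and 0, against 9.08% and 3.31%. The median over the 10 genes was 0.37 and that over all tested genes 0.02. CIDEC differed most (2.22 ± 0.24, adjusted p = 3.2e-05), then FADS2 (1.67 ± 0.08, adjusted p = 3.0e-07), FADS1 (1.07 ± 0.10, adjusted p = 1.5e-05) and DGAT2 (1.07 ± 0.12, adjusted p = 5.8e-05), so all 4 of the deeper losses were in MHCC-97L. ELOVL6 was the reverse, with its fall in MHCC-97H (-0.64 ± 0.12, adjusted p = 1.4e-03). PLIN2 was the single gene not called, with a difference of 0.04 and a 95% interval of -0.20 to 0.29 (adjusted p = 0.746). ACACA differed by 0.35 ± 0.09 (adjusted p = 5.2e-03).

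The differences of FASN (0.39, adjusted p = 0.0275), SCD (0.27, adjusted p = 0.0203) and ACLY (-0.25, adjusted p = 0.0212) were close to the threshold. That of FASN was 0.22 without the second MHCC-97H control (adjusted p = 0.0332), and its call was lost without the filter on low values (adjusted p = 0.0719), without the second MHCC-97L control (adjusted p = 0.088) or without any of the 4 Flag-OGT libraries (adjusted p 0.0545 to 0.0946). That of SCD was 0.43 with quantile normalization (adjusted p = 4.3e-03), and its call was lost without the first MHCC-97L control (adjusted p = 0.0809), without the first MHCC-97L Flag-OGT library (adjusted p = 0.0699) or without either MHCC-97H Flag-OGT library (adjusted p = 0.0654 and 0.0614). That of ACLY was lost without the second MHCC-97L control (adjusted p = 0.0903), without the second MHCC-97H or MHCC-97L Flag-OGT library (adjusted p = 0.0885 and 0.0703), with a common sum (adjusted p = 0.0732) and with quantile normalization (adjusted p = 0.109).

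Between the control libraries the lines differed in both directions. MHCC-97H had more ACLY (log2 difference 0.81 ± 0.06, adjusted p = 1.7e-06), PLIN2 (0.63, adjusted p = 7.0e-05), SCD (0.62 ± 0.06, adjusted p = 1.4e-05) and ACACA (0.29, adjusted p = 2.3e-03). MHCC-97L had more CIDEC, by 7.91-fold on the scale of FPKM + 1 (-2.98 ± 0.17, adjusted p = 3.8e-07), and more FADS2 (-0.48, adjusted p = 7.5e-05), FASN (-0.46, adjusted p = 1.8e-03) and FADS1 (-0.29, adjusted p = 5.0e-03). This made 4 genes higher and 4 lower in MHCC-97H, where 26.5% and 38.9% of all tested genes were called (65.4% in either direction; 3589 and 5270 genes, but 4948 and 4090 with median-of-ratios scaling, 4676 and 4220 with a common sum and 4547 and 3963 with quantile normalization). At 2-fold or more 0 were higher and 1, CIDEC, lower, against 2.19% and 5.45%. The FADS1 call was lost with a common sum (-0.16, adjusted p = 0.0777), with median-of-ratios scaling (-0.14, adjusted p = 0.0833) and without the first MHCC-97L control (-0.24, adjusted p = 0.0507). The FASN difference was -0.29 without the second MHCC-97H control and -0.31 with median-of-ratios scaling. ELOVL6 (95% interval -0.24 to 0.15, adjusted p = 0.707) and DGAT2 (-0.36 to 0.03, adjusted p = 0.131) were not called.

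With Flag-OGT in both lines, 7 genes were higher in MHCC-97H and 2 lower, where 33.6% and 36.1% of all tested genes were called (69.7% in either direction; 4551 and 4894 genes, but 5668 and 3733 with median-of-ratios scaling and 5934 and 3526 with a common sum). FADS2 was higher by 1.19 on the log2 scale (adjusted p = 2.5e-07), the single difference of at least 2-fold among the 10 (4.24% of all tested genes were that much higher and 3.59% that much lower). DGAT2 (0.90), SCD (0.89), FADS1 (0.78), PLIN2 (0.67), ACACA (0.64) and ACLY (0.55) were higher too, with adjusted p from 1.2e-06 to 3.6e-05. CIDEC remained lower in MHCC-97H (-0.76, adjusted p = 2.5e-03), and ELOVL6 was lower there (-0.68, adjusted p = 7.0e-05). FASN was not called (-0.07, adjusted p = 0.532). FADS1, FADS2 and DGAT2 thus stood in opposite order in the 2 states: their mean FPKM was lower in MHCC-97H than in MHCC-97L among controls and higher with Flag-OGT, although the DGAT2 difference among controls was not called.

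The order of levels of the 10 genes differed between the 4 groups. In the MHCC-97H controls it ran SCD, FASN, FADS2, ACLY, PLIN2, FADS1, ACACA, CIDEC, ELOVL6 and DGAT2, and the libraries of ACACA and CIDEC overlapped. With Flag-OGT it ran SCD, FASN, ACLY, FADS2, ACACA, PLIN2, ELOVL6, DGAT2, FADS1 and CIDEC, and FADS2 overlapped ACACA and DGAT2 overlapped FADS1. In the MHCC-97L controls it ran FASN, CIDEC, FADS2, SCD, FADS1, ACLY, PLIN2, ACACA, ELOVL6 and DGAT2, and CIDEC and FADS2 overlapped. With Flag-OGT it ran FASN, SCD, ACLY, ACACA, ELOVL6, PLIN2, FADS2, CIDEC, FADS1 and DGAT2, and ELOVL6 overlapped PLIN2 and FADS1 overlapped DGAT2. Neighbours not named as overlapping were separate in both libraries. FASN and SCD filled the first places in 3 of the 4 groups. In the MHCC-97L controls CIDEC stood at the level of FADS2. The 10 genes together held 0.10% of the summed FPKM in both MHCC-97H controls and 0.106% and 0.105% in the MHCC-97L controls, against 0.0935% and 0.0933% in MHCC-97H and 0.0581% and 0.0596% in MHCC-97L with Flag-OGT.

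Pairs of related genes, not all of which act at the same step, were compared by their ratio within each library. In such a ratio a scaling of the whole library cancels apart from the pseudocount. A called change opposite to that of the partner was seen for DGAT1 and CIDEB, both in MHCC-97H. Ratios are log2 of FPKM + 1 over FPKM + 1, and 8 of the 14 changes moved by more than the spread between replicates with a pseudocount of 0.1, none of them in sign. DGAT1, the other diacylglycerol acyltransferase, was at 21.2 and 18.8 FPKM in the MHCC-97H controls against 32.8 and 33.5 FPKM with Flag-OGT (log2 difference 0.70, adjusted p = 2.6e-06). It was at 45.9 and 45.1 FPKM and at 37.8 and 36.1 FPKM in MHCC-97L (-0.29, adjusted p = 1.8e-03). The DGAT2 to DGAT1 ratio went from -1.76 to -2.73 in MHCC-97H and from -2.74 to -3.79 in MHCC-97L.

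CIDEB, the CIDE protein of hepatocytes that acts in lipoprotein loading, rose in MHCC-97H from 0.47 and 0.59 FPKM to 2.15 and 2.31 FPKM (1.08, adjusted p = 3.0e-07). The CIDEC to CIDEB ratio went from 3.24 to 0.08 in MHCC-97H and from 6.16 to 1.94 in MHCC-97L, where CIDEB was at 0.49 to 0.67 FPKM in all 4 libraries. PLIN3, the ubiquitous perilipin, fell with PLIN2: it was at 79.1 and 70.5 FPKM and then at 19.1 and 18.3 FPKM in MHCC-97H (-1.94, adjusted p = 7.9e-10), and at 39.3 and 39.4 FPKM and then at 16.7 and 17.1 FPKM in MHCC-97L (-1.17, adjusted p = 4.5e-08). The PLIN2 to PLIN3 ratio therefore overlapped between states in MHCC-97H (-0.62 and -0.59) and went from -0.34 to -1.12 in MHCC-97L.

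ACACB, the mitochondrial carboxylase that restrains fatty acid oxidation, rose in MHCC-97H from 1.47 and 1.55 FPKM to 4.09 and 4.04 FPKM (1.01, adjusted p = 1.6e-07), and the ACACA to ACACB ratio went from 2.68 to 1.66. In MHCC-97L ACACB was at 1.98 and 2.00 FPKM and at 2.18 and 2.28 FPKM (adjusted p = 0.14), and the ratio went from 2.14 to 1.67. SCD5, a second stearoyl-CoA desaturase, rose in both lines (0.84 and 0.49, adjusted p = 1.7e-05 and 9.1e-04), and the SCD to SCD5 ratio went from 4.51 to 4.19 and from 3.45 to 3.21. ELOVL5, the elongase of polyunsaturated chains, fell in both (-0.65 and -0.38, adjusted p = 6.2e-06 and 3.5e-04). The ELOVL6 to ELOVL5 ratio overlapped in MHCC-97H (-2.87 and -2.89) and went from -1.72 to -1.37 in MHCC-97L. The MHCC-97H overlap depended on the pseudocount: with 0.1 the libraries were separate, at means of -2.99 in controls and -3.10 with Flag-OGT. FADS1 lost more than FADS2, with ratios from -0.93 to -1.73 in MHCC-97H and from -1.11 to -1.32 in MHCC-97L. With a pseudocount of 1, no ratio overlapped between the states of a line apart from those of PLIN2 and ELOVL6 in MHCC-97H.

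**Figure D4:**
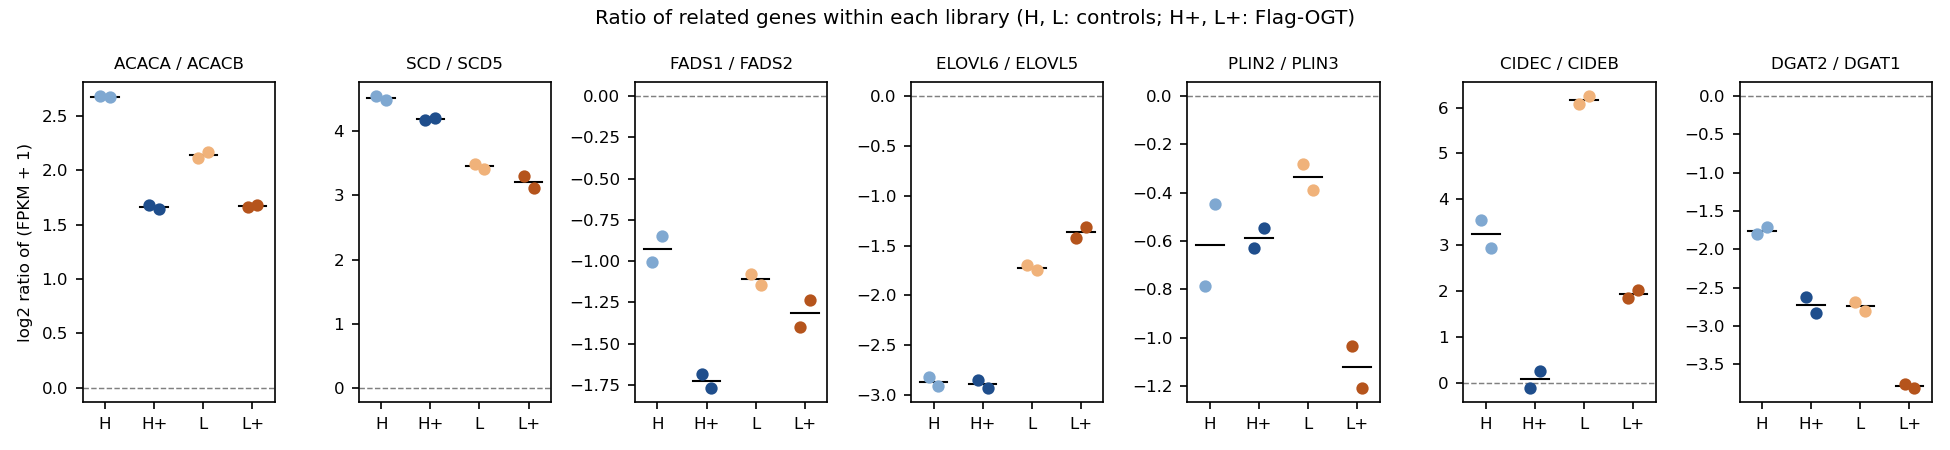
Log2 ratio of FPKM + 1 of 7 pairs of related genes (vertical axes, log2 scale, differing between panels) in each library; H and L are controls of MHCC-97H and MHCC-97L, H+ and L+ the Flag-OGT libraries, points are libraries, lines are group means and the dashed line marks equal levels. The CIDEC to CIDEB ratio falls to 0.08 in MHCC-97H with Flag-OGT, and the DGAT2 to DGAT1 ratio falls in both lines.

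Among 139 other genes of lipid metabolism and its regulation, the gene whose 4 group means lay nearest to each of the 10 was found by the root mean square difference of log2(FPKM + 1) after centring. FASN lay nearest to FITM2, a protein of lipid droplet formation (0.05), and ACACA to HADHB, a subunit of the mitochondrial trifunctional protein (0.09). SCD lay nearest to MBTPS2 (0.15) and ACLY to MBTPS1 (0.15), the proteases that cut SREBP precursors. FADS1 lay nearest to G0S2, an inhibitor of triglyceride lipase (0.23), and FADS2 to TRIB1, a pseudokinase (0.21). PLIN2 lay nearest to CPT1A, the gate of mitochondrial oxidation (0.15), ELOVL6 to PRKAA1 (0.13) and DGAT2 to ACAA2 (0.19). CIDEC had no close neighbour, since the nearest, ETFB, lay at 0.64. These are descriptions over 4 groups.

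The wider pathway lists moved in both directions, as most genes did. The counts below are to be read against the 48.2% of all tested genes called higher and 36.3% called lower in MHCC-97H, and the 50.1% and 34.7% in MHCC-97L. Of 12 genes of malonyl-CoA and palmitate synthesis, ACLY, ACACA and FASN included, 8 were called higher and 1 lower in MHCC-97H (median log2 difference 0.57; 8 and 3 with median-of-ratios scaling). Without those included genes the counts were 6 and 1 of 9 in MHCC-97H and 4 and 3 in MHCC-97L. In MHCC-97L 5 of the 12 were higher and 4 lower (median 0.15, which was -0.03 with median-of-ratios scaling). The list includes mitochondrial enzymes, among them MECR, ACSS1 and ACACB, which were called higher in MHCC-97H. MECR, the reductase of mitochondrial fatty acid synthesis, rose in both lines: its group means went from 7.58 to 33.5 FPKM in MHCC-97H, and in MHCC-97L they went from 8.75 to 25.9 FPKM. ME1, a source of NADPH, fell from 54.0 to 11.1 FPKM and from 44.2 to 7.61 FPKM. ACSS1, the mitochondrial acetyl-CoA synthetase, went up in MHCC-97H (3.18 to 9.96 FPKM) and down in MHCC-97L (22.7 to 4.92 FPKM).

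Of 19 tested genes of desaturation and elongation (20 in the table, SCD, ELOVL6, FADS1 and FADS2 included), 7 were called higher and 10 lower in MHCC-97H (median -0.25), and 11 and 6 in MHCC-97L (median 0.29). With median-of-ratios scaling the MHCC-97L counts were 8 and 8 of 18 (median 0.11). Without the included genes 6 were higher and 7 lower in MHCC-97H and 10 and 4 in MHCC-97L, of 15. The elongases of very long chains ELOVL2 and ELOVL4 were at or near 0 in the controls and reached 8.95 and 5.43 FPKM in MHCC-97H and 5.95 and 5.03 FPKM in MHCC-97L with Flag-OGT, while FADS1, whose products ELOVL2 lengthens, fell. Of 11 tested acyl-CoA synthetases (12 in the table), 4 were higher and 6 lower in either line (medians -0.28 and -0.25), with 2 and 6 of 10 in MHCC-97L after median-of-ratios scaling. ACSL5 was at 11.3 FPKM in MHCC-97H and listed at 0 with Flag-OGT, and it went from 9.35 to 0.025 FPKM in MHCC-97L. Of 15 tested genes of triacylglycerol synthesis (17 in the table, DGAT2 included), 8 were higher and 6 lower in MHCC-97H (median 0.22) and 7 and 7 in MHCC-97L (median 0.13; 4 and 7 with a median of -0.07 with median-of-ratios scaling; 8 and 5 of 14 in MHCC-97H and 7 and 6 in MHCC-97L without DGAT2). GPAT3, which starts the glycerolipid route, fell from 30.9 to 3.31 FPKM (log2 difference -2.88, adjusted p = 1.5e-10) and from 30.1 to 2.75 FPKM (-3.05, adjusted p = 1.2e-10).

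Of 18 tested droplet coat and assembly genes (20 in the table, PLIN2 and CIDEC included), 7 were higher and 9 lower in MHCC-97H (median -0.38), and 6 and 10 in MHCC-97L (median -0.32; 3 and 11 with median-of-ratios scaling and 4 and 11 with a common sum). Without PLIN2 and CIDEC the counts were 7 and 7 of 16 in MHCC-97H (median 0.03) and 6 and 8 in MHCC-97L (median -0.15). METTL7B fell from 59.1 to 5.51 FPKM and from 95.9 to 11.0 FPKM, whereas its relative METTL7A rose from 2.71 to 13.9 FPKM and from 6.99 to 14.9 FPKM. HILPDA, a hypoxia-induced droplet protein that inhibits lipolysis, rose in MHCC-97H from 12.1 to 38.1 FPKM (1.57, adjusted p = 3.6e-09). In MHCC-97L its means were 19.4 and 22.4 FPKM (0.19, adjusted p = 0.0165), which did not pass after median-of-ratios scaling (-0.0089, adjusted p = 0.908), with a common sum (0.078, adjusted p = 0.262) or without the first control or first Flag-OGT library (adjusted p = 0.0885 and 0.11). PLIN1, the adipocyte perilipin, rose in both lines, in MHCC-97H from 0.085 to 0.635 FPKM (0.59, adjusted p = 1.1e-04) and in MHCC-97L from 0.315 to 2.30 FPKM (1.32, adjusted p = 2.0e-07).

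Of 9 tested genes of lipolysis and lipophagy (10 in the table), 5 were higher and 3 lower in MHCC-97H (median 0.43) and 4 and 3 in MHCC-97L (median 0.15, which was -0.04 with median-of-ratios scaling). MGLL, the monoacylglycerol lipase, fell from 30.1 to 1.68 FPKM and from 75.0 to 0.75 FPKM, and G0S2 from 21.4 to 1.89 FPKM and from 23.7 to 1.15 FPKM. PNPLA3, the lipase of droplets in hepatocytes, rose from 1.14 to 5.67 FPKM and from 2.14 to 6.90 FPKM. Of 24 fatty acid oxidation genes, 12 were higher and 7 lower in MHCC-97H (median 0.11) and 12 and 12 in MHCC-97L (median 0.04); these medians were -0.08 and -0.17 with median-of-ratios scaling, which called 11 higher and 11 lower in MHCC-97H. The muscle form CPT1B rose from 1.71 to 17.1 FPKM and from 3.37 to 30.4 FPKM. CPT1A, the liver form, fell from 29.3 to 9.05 FPKM and from 21.7 to 5.61 FPKM. Of 7 tested uptake and binding genes (13 in the table), 2 were higher and 5 lower in MHCC-97H (median -0.90) and 1 and 4 in MHCC-97L (median -0.27), where 0 were higher under each of the other scalings. MTTP, which loads lipid onto lipoproteins, went from 6.28 to 0.005 FPKM and from 5.12 to 0.02 FPKM.

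**Figure D5:**
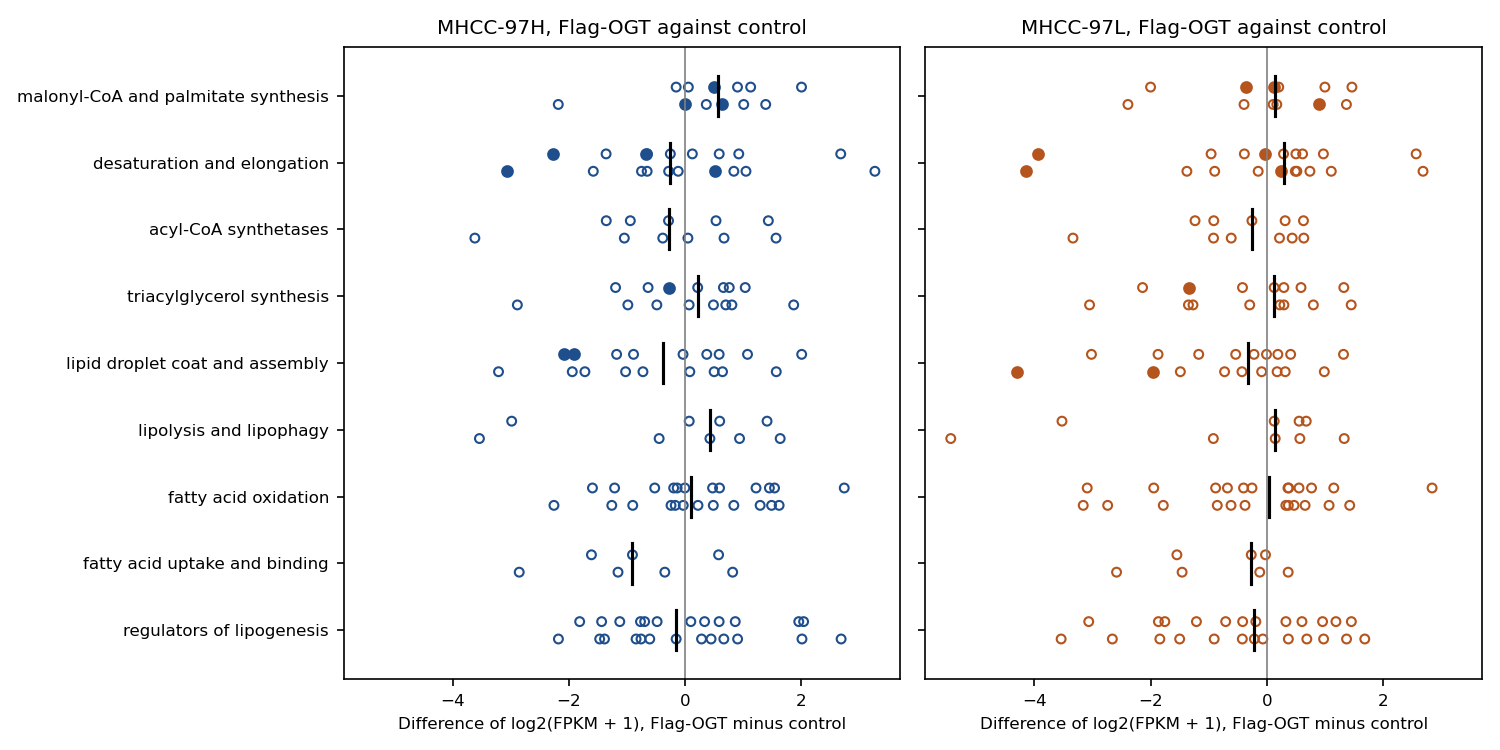
Log2 difference of FPKM + 1, Flag-OGT minus control (horizontal axes), for the tested genes of 9 lists in MHCC-97H (left) and MHCC-97L (right); points are genes, filled where they are among the 10 genes described here, and black lines are list medians. Every list holds genes on both sides of 0. The median of the malonyl-CoA and palmitate synthesis list, which includes mitochondrial enzymes, is 0.57 in MHCC-97H and 0.15 in MHCC-97L.

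Of 25 tested regulators of lipogenesis (27 in the table), 11 were higher and 13 lower in MHCC-97H (median -0.15) and 10 and 13 in MHCC-97L (median -0.21). SREBF1, whose product drives fatty acid synthesis genes, had group means of 34.3 and 19.6 FPKM for MHCC-97H controls and Flag-OGT libraries (log2 difference -0.76 ± 0.09, adjusted p = 2.7e-05) and of 59.7 and 15.7 FPKM in MHCC-97L (-1.86 ± 0.09, adjusted p = 2.5e-08). Its relative SREBF2, known for cholesterol synthesis, rose from 16.6 to 113 FPKM (2.69, adjusted p = 2.6e-11) and from 20.4 to 57.9 FPKM (1.46, adjusted p = 2.7e-09). MLXIPL, which encodes ChREBP, rose from 1.64 to 9.86 FPKM (2.04, adjusted p = 2.7e-08) and from 4.09 to 15.4 FPKM (1.69, adjusted p = 1.4e-07). PPARG, the adipogenic receptor, fell from 58.0 to 21.6 FPKM (-1.38 ± 0.07, adjusted p = 2.1e-08) and from 122 to 18.5 FPKM (-2.66 ± 0.07, adjusted p = 1.8e-10). By the test of the difference between lines, SREBF1 (1.10, adjusted p = 7.6e-05) and PPARG (1.27, adjusted p = 4.2e-06) fell further in MHCC-97L. In that test 15 of the 25 regulators were called higher and 5 lower, against 33.9% and 29.4% of all tested genes. Any part of the regulators in the changes of the 10 genes was not tested. CEBPA, a hepatocyte and adipocyte factor, fell from 45.3 to 12.2 FPKM and from 86.3 to 9.46 FPKM.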

How the data were processed

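The authors deposited FPKM per gene and library with 2 decimals. Per the labels' protocols, Trizol was used to extract total RNA and a SMARTer kit to build libraries. The submitters' processing notes name the genome hg19 and, with no roles, DESeq2 1.18.1, RSEM 1.2.4, HISAT2 2.1.0 and Bowtie2; the step that gave FPKM is not stated in the sources used here. Of 18928 features, 26 with symbols turned into dates (up to 0.10% of a library's sum) were left out. The FPKM of a library summed to 510449 to 613101, and the read depth is unknown.

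Means of the 4 groups were fitted to log2(FPKM + 1) over all 8 libraries with limma 3.58.1 in R 4.3.3, using its trend option; 4 residual degrees of freedom remained. Intervals are at 95%. Each of 5 comparisons was tested over the 13553 genes whose mean reached 0.5 FPKM, with Benjamini-Hochberg adjustment, and called under 0.05. The procedure was tested on simulated data in which few genes differed, all of them upward and in a single group. Most genes were called in the real data, so that test cannot show how far the calls here hold. Python 3.11.15 with numpy 2.4.6, pandas 2.3.3 and matplotlib 3.10.9 gave the tables and plots.

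Named were the 10 genes, their paralogs, up to 2 called genes at either end of each pathway list whose libraries did not overlap, SREBF1, MLXIPL, PPARG and the gene nearest in pattern; not every gene meeting the rule is printed. OGT, the neighbours of FADS1 and the cell type markers were added outside it. The 10 genes and all lists were chosen with earlier results of these data known. Promoter sequences and exon overlaps came from RefSeq (GRCh38.p14) and GENCODE tables, which are of another build than the files. The alternatives changed the pseudocount (0.1), the filter (none, or a mean of 2), the scaling (FPKM rescaled to a common sum, quantile normalization, or median-of-ratios) and the fit (without trend, with the compared groups only, or with the replicate number as a block), asked for 2-fold, or dropped libraries singly.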

Additional observations from a re-analysis of the deposited data

Results flagged for a closer look

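For 9 of the 10 genes the change with Flag-OGT differed between MHCC-97H and MHCC-97L by the test of the difference in limma (log2 change in MHCC-97H minus that in MHCC-97L), as did 63.3% of all tested genes. The fall was deeper in MHCC-97L for CIDEC (2.22), FADS2 (1.67), FADS1 (1.07) and DGAT2 (1.07). ELOVL6 (-0.64) fell in MHCC-97H, and ACACA (0.35) fell in MHCC-97L. The gains of FASN (0.39) and SCD (0.27) were larger in MHCC-97H and that of ACLY (-0.25) in MHCC-97L.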

How the results depend on the processing

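Of 904 values of the 10 genes and their paralog ratios under the alternatives, 826 kept direction and side of the threshold, 50 lost and 4 gained a call, 8 ratios moved and 16 changed sign. Of 2058 for the other named genes, 1989 kept both. Asking for 2-fold left 3016 genes higher and 2167 lower in MHCC-97H, 2523 and 2181 in MHCC-97L, 1231 and 448 for the difference between lines, 297 and 739 between the controls and 575 and 486 between the Flag-OGT groups. Of the 10 genes it left 0 higher in either line, 4 higher and 0 lower for the difference, 0 higher and 1 lower between controls, and 1 higher and 0 lower between the Flag-OGT groups. Of the 10, 1 was called higher in MHCC-97L with a common sum and 1 with median-of-ratios scaling. For the difference between lines 1 was called lower with a common sum and 1 with quantile normalization, and 1 to 2 with each library left out.

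Of the values that changed sign, HILPDA in MHCC-97L (-0.0089 with median-of-ratios scaling) alone had passed the test. ACACA in MHCC-97H was 0.017 without the second control and 0.023 without the second Flag-OGT library (-0.023 to 0.023 with each library left out). FASN in MHCC-97L was -0.00080 with a common sum and -0.091 with median-of-ratios scaling. ELOVL6 in MHCC-97L was 0.048 without the first control and 0.080 without the first Flag-OGT library (-0.14 to 0.080). The PLIN2 difference between lines was -0.069 with quantile normalization, -0.044 without the first MHCC-97H control, -0.0089 without the first MHCC-97L control and -0.029 without the second MHCC-97L Flag-OGT library (-0.044 to 0.13). Between controls ELOVL6 was 0.079 with a common sum, 0.099 with median-of-ratios scaling and 0.037 without the first MHCC-97L control (-0.12 to 0.037). Between the Flag-OGT groups FASN was 0.13, 0.091 and 0.14 with a common sum, median-of-ratios scaling and quantile normalization. With median-of-ratios scaling FEN1 in MHCC-97H was -0.094 and ACACB in MHCC-97L -0.031. SLC27A4 in MHCC-97H was -0.0024 with a common sum, -0.15 with median-of-ratios scaling and -0.019 without the second control (-0.019 to 0.12). The causes were not tested.

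The deviations of samples with the same replicate number had r from -0.206 to 0.309 over 6 pairs of groups. These are correlations across genes with 2 libraries a group, so they cannot show whether the numbers pair the samples. With a replicate block 6523 genes were called higher and 4913 lower in MHCC-97H and 6778 and 4695 in MHCC-97L, and the counts for the 10 genes did not change. Leaving out a library leaves a group with 1 sample, which is assumed to vary like the others. Unknown depth, 2 libraries a group and rounding to 2 decimals limit values near 0.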
